A study of Mus musculus with 22 samples.

Results

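Lin28b, Hmga1, Hmga2, Igf2bp1, Igf2bp2 and Igf2bp3 are growth regulators that act on RNA or on chromatin. They were taken by gene name from the deposited table, as its Lin28b, Hmga and Igf2bp genes, with earlier results of these data known. All 6 were found among its 34745 genes, and all 6 were among the 16117 genes that reached 1 FPKM in at least 2 libraries and were tested. Bulk RNA sequencing covered whole ovaries of wild-type CD1 mice (outbred) over 11 ages, in 22 libraries or 2 per age, and the labels name no transgene or treatment for any group. The ages were embryonic day 13 (E13), 15 (E15) and 17 (E17), postnatal day 0 (P0), 3 (P3), 7 (P7), 14 (P14), 21 (P21) and 60 (P60), 1 year (Y1) and 2 years (Y2). Whether both libraries of an age stem from different animals is not stated, and the p-values reflect library-to-library spread that may be technical. Expression is in FPKM (fragments normalised to transcript length and to library size), so levels of different genes are compared per length.

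LIN28 proteins are RNA-binding proteins that block the maturation of let-7, a family of small RNAs that appears as tissues mature, and let-7 in turn pairs with sites in the 3′ untranslated regions of Lin28b, Hmga2 and the Igf2bp genes and lowers their output. The IGF2BP proteins bind messenger RNAs, Igf2 among them, and affect their stability, localization and translation, and they are also readers of N6-methyladenosine (m6A). The HMGA proteins bind the minor groove of AT-rich DNA through AT-hooks and alter chromatin architecture. In several tissues these genes are known for high levels in the embryo and low levels in the adult. In the mouse germ line Lin28a, the paralogue of Lin28b, acts in primordial germ cells.

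The let-7 sequences are shown because the seed, bases 2 to 8, is what the sites in these genes pair with. The mature forms below come from RefSeq (GRCm38.p6), with the seed in capitals. Let-7a, let-7g and miR-98 share the seed with every other let-7 form in that table except let-7j, whose seed is different.

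mmu-let-7a-5p: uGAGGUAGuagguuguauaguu

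mmu-let-7g-5p: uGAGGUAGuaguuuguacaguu

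mmu-miR-98-5p: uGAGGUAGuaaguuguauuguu

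mmu-let-7j: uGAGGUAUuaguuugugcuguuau

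All 6 genes held the 7-letter complement of that seed, CTACCTC, in the longest annotated 3′ untranslated region (GENCODE M21, GRCm38, which is mm10). Among 21177 genes with such a region, 10.1% held it. Lin28b held 4 matches in 4445 bases, Hmga2 held 4 in 3014 bases and Igf2bp1 held 4 in 6337 bases, against 0.175% of all genes with 3 or more. Hmga1, Igf2bp2 and Igf2bp3 held 1 each. The longer match of 8 letters, CTACCTCA, was present in 5 of the 6 genes (all but Hmga1) and in 3.54% of all genes, and Igf2bp1 held 3 of them. Both motifs were read on the transcript strand only, and every 8-letter match contains a 7-letter one.

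The sites printed here are the 8-letter match nearest the stop codon of Lin28b and of Hmga2, the 3 of Igf2bp1, those of Igf2bp2 and Igf2bp3, and the 7-letter match of Hmga1. Each is given from 5′ to 3′ with the 7-letter match in capitals.

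Lin28b site 1: cacccgggcgggaagtCTACCTCatgc

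Hmga2 site 1: cgccgacattcaatttCTACCTCagca

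Igf2bp1 site 1: tgctgtgcgaagtaaaCTACCTCaagg

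Igf2bp1 site 2: ccagcagtgctattaaCTACCTCagcc

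Igf2bp1 site 3: agtataaatggatgaaCTACCTCagtc

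Igf2bp2 site 1: aacacacaaataaaagCTACCTCaggt

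Igf2bp3 site 1: gtgcatttttactcaaCTACCTCaggt

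Hmga1 site 1: ctcctctgttcacaaaCTACCTCtgga

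A longer region holds more matches by its length alone, so each count was also set beside genes with a region within 20% of the same length. At least 4 matches occurred in 3 of 1458 genes of a length like that of Lin28b (0.206%), in 3 of 2567 like Hmga2 (0.117%) and in 2 of 600 like Igf2bp1 (0.333%). Each of these sets of similar length includes the named gene itself. At least 1 match occurred in 8.62% of genes of a length like Hmga1, 12.8% like Igf2bp2 and 14.5% like Igf2bp3. These are letter matches in annotated transcripts. The levels of let-7 itself were not analysed here.

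**Figure D1:**
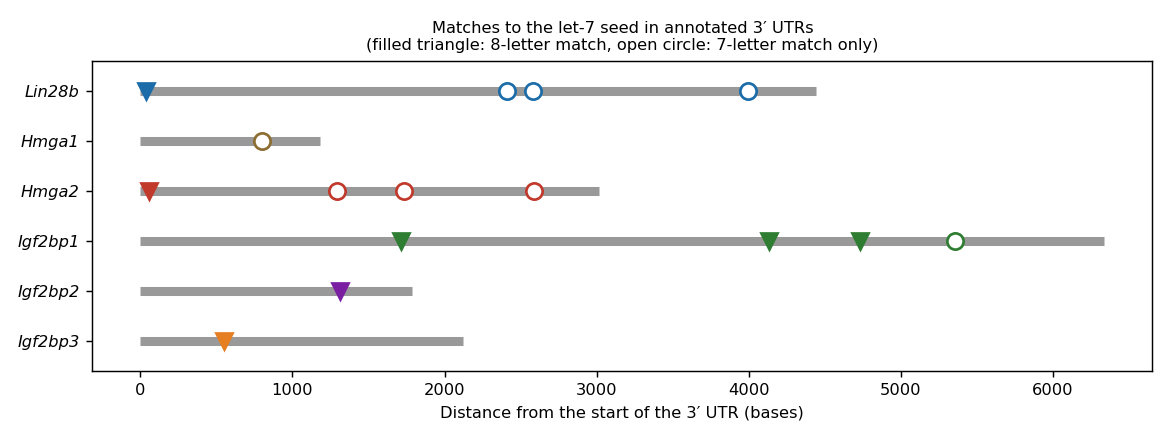
Matches to the let-7 seed along the 3′ untranslated region of the 6 genes, with distance from the start of the region in bases on the horizontal axis. Filled triangles are 8-letter matches and open circles 7-letter matches only. Lin28b, Hmga2 and Igf2bp1 carry 4 matches each, and the first of Lin28b and of Hmga2 lie 36 and 58 bases into the region.

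The libraries held an estimated 11500000 to 18100000 fragments, and 12656 to 13566 genes reached 1 FPKM in each. The markers went with an ovary: of 7 pre-granulosa markers (such as Foxl2 and Wnt4), 7 reached 1 FPKM at 10 of the 11 ages and 6 did at Y1. Because whole ovaries were sequenced, fewer cells of a type and less RNA per cell cannot be told apart for any value below. Estrous cycle stage was not among the labels, so in adults it cannot be told apart from age. Fetal columns carry fewer decimals than postnatal columns, and whether 1 quantification run made both is not known here.

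From E13 to P60 all 6 genes fell, while 30.5% of all tested genes were lower at P60 (limma on log2(FPKM + 1), Benjamini-Hochberg adjusted p under 0.05). The spread across the 11 ages was past the threshold for all 6, as it was for 88.1% of tested genes. At E13 the highest level per length was that of Hmga2 at 90.4 ± 1.69 FPKM (SD, n = 2, as for all means here), followed by Igf2bp3 at 17.1 ± 0.567, Igf2bp2 at 16.1 ± 2.23, Igf2bp1 at 14.8 ± 0.572, Hmga1 at 6.83 ± 0.971 and Lin28b at 4.51 ± 0.17. At P60 the order was Igf2bp2 at 1.64 ± 0.515 FPKM, Hmga2 at 1.31 ± 0.228, Hmga1 at 0.934 ± 0.0196, Igf2bp3 at 0.239 ± 0.0248, Lin28b at 0.075 ± 0.0197 and Igf2bp1 at 0.011 ± 0.000686. On the log2(FPKM + 1) scale the changes were -5.31 ± 0.53 for Hmga2 (SE, limma, adjusted p = 9.48e-07), -3.96 ± 0.12 for Igf2bp1 (4.42e-12), -3.87 ± 0.10 for Igf2bp3 (1.65e-12), -2.71 ± 0.20 for Igf2bp2 (4.57e-08), -2.36 ± 0.11 for Lin28b (5.76e-10) and -2.01 ± 0.34 for Hmga1 (0.000164). This scale shrinks the changes of genes that end near or below 1 FPKM. In mean FPKM the falls were 1340-fold for Igf2bp1, 71.5-fold for Igf2bp3, 68.8-fold for Hmga2, 60.2-fold for Lin28b, 9.84-fold for Igf2bp2 and 7.31-fold for Hmga1. The P60 level of Igf2bp1 stood for about 1.6 fragments a library, so its ratio is uncertain. In none of the 6 did the libraries of E13 and P60 overlap. The genes differed in when they fell. Igf2bp1 and Hmga2 were low by E17, Lin28b fell around birth, Igf2bp3 fell in stages from E13 to P21, and Igf2bp2 stayed high until P14.

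**Figure D2:**
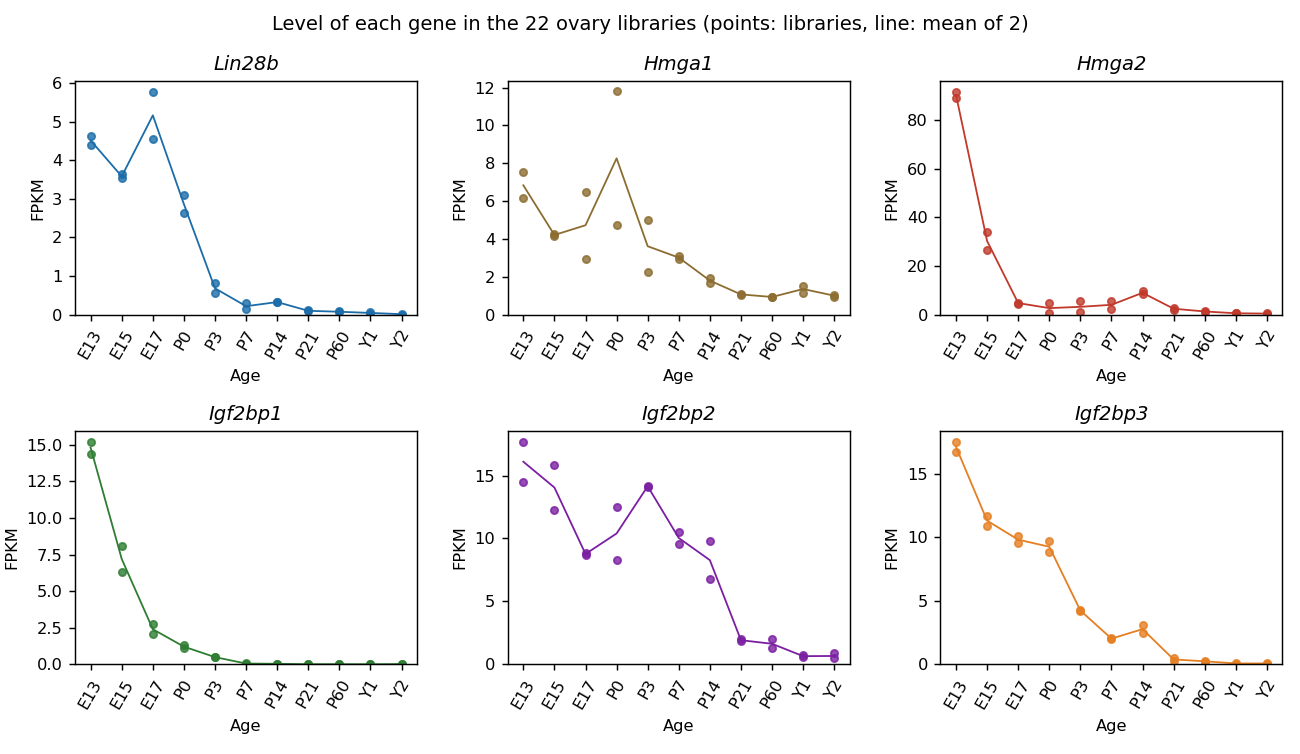
FPKM of each gene against age in the 22 libraries, with a point for each library and a line through the mean of the 2 libraries of an age. Igf2bp1 and Hmga2 drop from E13 to E17, Lin28b drops from P0 to P7, and Igf2bp2 remains at 6.75 FPKM or above until P14.

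Lin28b (ENSMUSG00000063804, chromosome 10, 45376620 to 45486395, minus strand) kept its level through fetal life and lost it around birth. Its libraries read 4.39 and 4.63 FPKM at E13, 3.63 and 3.53 at E15, 4.56 and 5.76 at E17, and 3.10 and 2.62 at P0. They then read 0.549 and 0.815 at P3, 0.298 and 0.140 at P7, and 0.321 and 0.331 at P14. From P21 on every library was at 0.112 FPKM or lower, and 1 library of Y2 was listed at 0. The libraries of E13 to P0 all lay above those of every later age. In the order of levels, E17 and E13 overlapped, and so did P21, P60, Y1 and Y2 with their neighbours.

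Between E13 and E17 Lin28b did not pass the test, with a log2 change of 0.15 ± 0.11 (SE, limma, adjusted p = 0.345). From E17 to P7 it fell by 2.33 ± 0.11 on the log2(FPKM + 1) scale (limma, adjusted p = 1.22e-09), and the mean FPKM was 23.6-fold lower. The fall was spread over the steps from E17 to P0 (log2 -0.67), from P0 to P3 (-1.20) and from P3 to P7 (-0.46), each past the threshold. The call from E17 to P0 was lost with a pseudocount of 0.1 (limma, adjusted p = 0.0695), and the call from P3 to P7 was lost without P3 replicate 2 (0.139) or P7 replicate 2 (0.115). The step from E15 to E17 was the only call upward among the 60 steps of the 6 genes (log2 0.42 ± 0.11, limma, adjusted p = 0.011). It was lost without E15 replicate 2 (adjusted p = 0.06) and without E17 replicate 2 (adjusted p = 0.134), and with a pseudocount of 0.1 (0.198). From P14 to P21 the libraries did not overlap, but the change of -0.27 did not pass (limma, adjusted p = 0.102). It passed with a pseudocount of 0.1 (log2 -1.09, limma, adjusted p = 0.0121), as did the fall from P7 to P60 (-0.82, 0.0385). From P21 on, a library held at most about 9 Lin28b fragments, so differences among the adult ages were not detectable at this depth.

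The germ cell markers Ddx4, Dazl, Mael, Tex14 and Mov10l1 also had a low point at E15, their highest sum at E17 and lower sums from P0 to P7. Their summed level was 252 to 260 FPKM at E13, 132 to 133 at E15, 306 to 365 at E17, 228 to 252 at P0, 115 to 136 at P3, 58.4 to 60.4 at P7 and 57.9 to 72.9 at P14, so the P7 and P14 libraries overlapped. All 5 were at 1 FPKM or above up to P14, 4 were at P21 and P60, and none was at Y1 or Y2, where the sums were 2.30 to 3.48 FPKM. Their part in the course of Lin28b was not tested.

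Lin28a, which was not among the 6 genes, read 15.5 and 17.5 FPKM at E13, 1.53 and 0.921 at E15, and 0.0658 and 0.444 at E17. It was higher again at P0 (3.78 and 3.63 FPKM) and P3 (6.37 and 6.98), and fell to 0.655 and 0.245 at P60. Thus at E17, where Lin28b had its highest mean, Lin28a had a mean of 0.255 ± 0.268 FPKM. The log2 difference between Lin28b and Lin28a was 0.56 ± 1.82 (SD, n = 6) in the E13, E15 and E17 libraries and -0.21 ± 0.22 (n = 6) in those of P60, Y1 and Y2. The adult minus fetal difference of -0.77 did not pass an exact two-sided permutation test (p = 0.353, adjusted p = 0.47 over 4 paralogue pairs). With E13 and E15 as the fetal ages it was 0.10, so no direction is given. It was -2.20 with a pseudocount of 0.1 (exact permutation, adjusted p = 0.0887) and ran from -1.23 (without E13 replicate 2) to -0.41 (without E17 replicate 1) when single libraries were left out. Libraries of different ages are pooled in this test, and those of an age are not independent of it. The smallest p it can give is 0.00216.

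The Igf2bp family as a whole fell from 46.4 and 49.6 FPKM (summed over its 3 genes) at E13 to 2.23 and 1.54 at P60. Its makeup changed from nearly equal parts to mostly Igf2bp2. At E13, Igf2bp1 was 31% and 30.6% of the sum, Igf2bp2 31.3% and 35.7%, and Igf2bp3 37.7% and 33.7%. At P60, Igf2bp1 was 0.515% and 0.684%, Igf2bp2 89.6% and 82.6%, and Igf2bp3 9.92% and 16.7%. Between P0 and P3 the share of Igf2bp2 went from 43.5% and 55.2% to 75.0% and 74.9%, while the summed FPKM was 19.1 and 22.6 at P0 and 18.8 and 18.9 at P3.

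**Figure D3:**
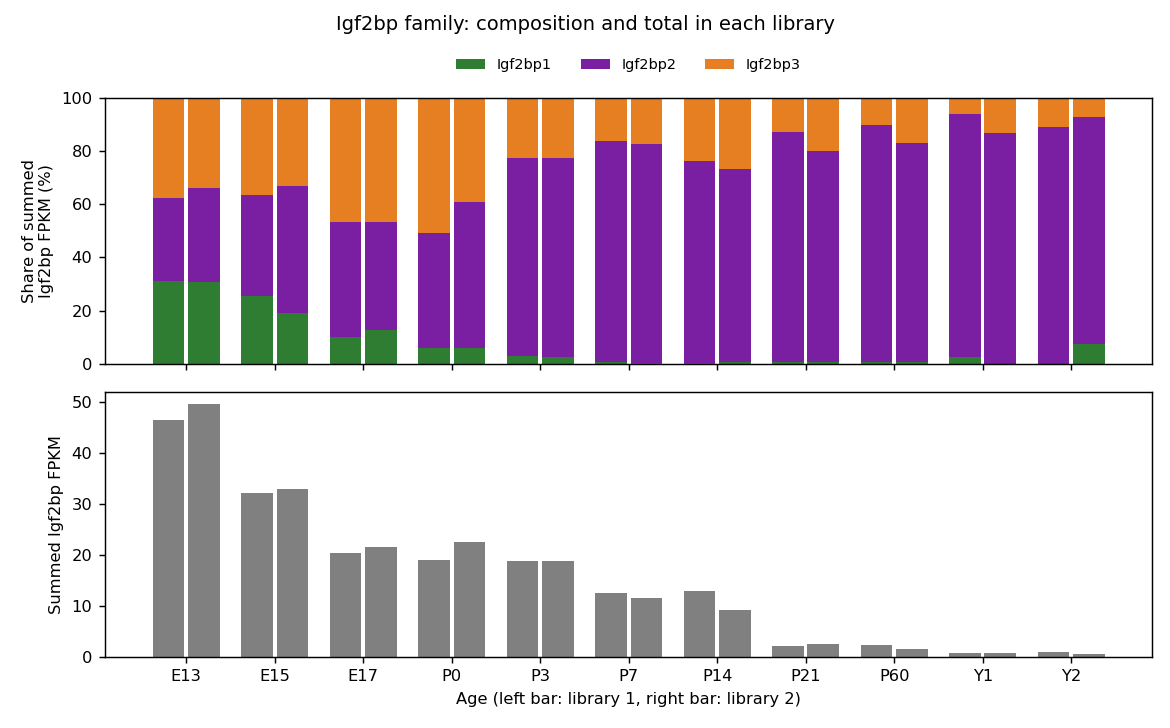
The upper panel shows the share of Igf2bp1, Igf2bp2 and Igf2bp3 in the summed FPKM of the 3 genes (percent), and the lower panel shows that sum (FPKM), with a bar for each library by age. Igf2bp1 shrinks from 31% and 30.6% at E13 to 5.76% and 5.81% at P0, and the sum drops between P14 (12.9 and 9.27 FPKM) and P21 (2.11 and 2.53 FPKM).

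Igf2bp1 (ENSMUSG00000013415, chromosome 11, 95957163 to 96005940, minus strand), the counterpart of the chicken zipcode-binding protein that binds beta-actin mRNA, was at 16.2% of its E13 mean by E17, against 54.5% for Igf2bp2 and 57.2% for Igf2bp3. Its libraries read 14.4 and 15.2 FPKM at E13, 8.11 and 6.28 at E15, 2.06 and 2.74 at E17, 1.10 and 1.32 at P0, and 0.505 and 0.484 at P3. At P7 they read 0.0685 and 0.0422, and from P14 on every library was at 0.0428 FPKM or lower. The libraries of each age from E15 to P7 lay below those of the age before, without overlap. It passed the test in each of the 5 steps from E13 to P7, with log2 changes of -0.95, -1.27, -0.62, -0.56 and -0.50. From E13 to E17 it fell by 2.22 ± 0.12 (limma, adjusted p = 5.8e-09), or 6.16-fold in mean FPKM, and from E17 to P7 by 1.68 ± 0.12 (limma, adjusted p = 3.53e-08). The P3 to P7 call was lost without P7 replicate 2 (limma, adjusted p = 0.0501). From P21 on the level stood for at most about 5.58 fragments a library if all came from the 8378-base transcript, so no order among the later ages is read.

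Igf2bp3 (ENSMUSG00000029814, chromosome 6, 49085223 to 49214957, minus strand) fell in 3 stages. Its libraries read 17.5 and 16.7 FPKM at E13, 11.7 and 10.9 at E15, 9.51 and 10.1 at E17, and 9.68 and 8.82 at P0. They read 4.21 and 4.25 at P3, 2.04 and 2.01 at P7, and 3.06 and 2.48 at P14. They read 0.272 and 0.503 at P21, 0.222 and 0.257 at P60, 0.0390 and 0.107 at Y1, and 0.104 and 0.0388 at Y2. The neighbours in the order of levels that overlapped were E17 with P0, and Y1 with Y2. The steps past the threshold were E13 to E15 (log2 -0.56), P0 to P3 (-0.97), P3 to P7 (-0.79) and P14 to P21 (-1.44, limma, adjusted p = 2.12e-07). The first of them was lost with a pseudocount of 0.1 (limma, adjusted p = 0.0898). Over the longer intervals it fell by 0.75 ± 0.10 from E13 to E17 (limma, adjusted p = 7.24e-05), by 1.83 ± 0.10 from E17 to P7 (4.11e-09) and by 1.29 ± 0.10 from P7 to P60 (4.24e-07).

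Igf2bp2 (ENSMUSG00000033581, chromosome 16, 22059009 to 22163299, minus strand), which is also known from adult metabolic tissues, kept its level longest. Its libraries read 14.5 and 17.7 FPKM at E13, 12.3 and 15.8 at E15, 8.82 and 8.72 at E17, and 8.30 and 12.5 at P0. They read 14.1 and 14.2 at P3, 10.5 and 9.58 at P7, 9.81 and 6.75 at P14, and 1.82 and 2.02 at P21. They read 2.00 and 1.27 at P60, 0.60 and 0.705 at Y1, and 0.865 and 0.467 at Y2. All libraries up to P14 were above all later ones, and among the ages up to P14 most neighbours in the order of levels overlapped. Its mean at P3 was 87.8% of that at E13, against 24.7% for Igf2bp3 and 3.35% for Igf2bp1. It did not pass the test from E17 to P7 (log2 0.17 ± 0.20, limma, adjusted p = 0.549) and fell by 1.65 ± 0.20 from P14 to P21 (limma, adjusted p = 2.7e-05), 4.31-fold in mean FPKM. Its fall from E13 to E17 (log2 -0.80 ± 0.20, limma, adjusted p = 0.00679) was lost without E13 replicate 2 (adjusted p = 0.0721). The call from E15 to E17 (log2 -0.61, limma, adjusted p = 0.0282) was lost without E15 replicate 2 (0.213), E17 replicate 1 (0.0872) or E17 replicate 2 (0.103), and with a pseudocount of 0.1 (0.0721). The step from P0 to P3 passed without P0 replicate 2 (log2 0.70, limma, adjusted p = 0.0425), and that from P3 to P7 with those ages fitted alone (-0.46, 0.0332).

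The change between the family members was itself tested on the log2 difference of each pair. Igf2bp3 minus Igf2bp2 was -0.02 ± 0.27 (SD, n = 6) in the fetal libraries and -0.78 ± 0.28 (n = 6) in the adult ones, a difference of -0.76 (exact two-sided permutation test, p = 0.00216, the smallest it can give, adjusted p = 0.00866). The test again pools libraries of different ages, and those of an age are not independent of it. Its p-values treat all libraries as independent, so they do not measure spread between ages. In these libraries Igf2bp3 was lower relative to Igf2bp2 in the adult, by an amount that depends on the pseudocount: with 0.1 the difference was -2.19 (exact permutation, adjusted p = 0.00866). Igf2bp1 minus Igf2bp2 was -0.84 ± 0.68 and -0.93 ± 0.39, a difference of -0.09 (exact permutation, p = 0.79). That value depends on the pseudocount too, since adult Igf2bp1 lies far below 1 FPKM: with 0.1 the difference was -2.15 (exact permutation, adjusted p = 0.00866).

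Hmga2 (ENSMUSG00000056758, chromosome 10, 120361275 to 120476469, minus strand), known from fetal stem cells and mesenchyme, had the highest level at E13 and most of its fall before E17. Its libraries read 89.2 and 91.6 FPKM at E13, 34.1 and 26.5 at E15, and 4.97 and 4.55 at E17. After birth they read 0.689 and 4.70 at P0, 5.53 and 0.917 at P3, 5.72 and 2.39 at P7, and 9.54 and 8.46 at P14. They read 2.10 and 2.79 at P21, 1.48 and 1.15 at P60, 0.498 and 0.646 at Y1, and 0.688 and 0.198 at Y2. The E13 and E15 libraries stood above all others, and in the order of levels E17, P7, P3, P0 and P21 overlapped with their neighbours, as did Y1 and Y2. From E13 to E17 it fell by 3.99 ± 0.53 (limma, adjusted p = 5.31e-05), 19-fold in mean FPKM. The step from E15 to E17 (log2 -2.43, limma, adjusted p = 0.00261) was the larger of the 2 fetal steps. The step from E13 to E15 (log2 -1.56, limma, adjusted p = 0.0451) lay close to the threshold and was lost without any of the E13 or E15 libraries, with adjusted p of 0.0892 to 0.218, with a pseudocount of 0.1 (0.161) and with no filter (0.072). Its adjusted p was also above 0.05 without any library of E17, P14, P21, P60 or Y1.

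Hmga2 did not follow a simple decline after birth. Its P14 libraries were above those of P7, but the log2 change of 1.07 ± 0.53 did not pass the test (limma, adjusted p = 0.389), and the later fall from P14 to P21 (log2 -1.54, limma, adjusted p = 0.0434) was lost under many alternatives. Its adjusted p was 0.105 to 0.187 without any of those 4 libraries, 0.0962 with a pseudocount of 0.1, 0.0694 with no filter, 0.0618 after quantile normalization and 0.0504 after median-of-ratios scaling. It was also above 0.05 without any library of E13, E15, E17, P60 or Y1. The libraries of an age were far apart around birth: 6.83-fold at P0, 6.03-fold at P3 and 2.40-fold at P7. Measured instead as a ratio of FPKM + 1, 0.685%, 0.156% and 0.730% of genes with a mean of at least 2 FPKM were as far apart at those ages. The summed level of 9 erythroid markers also differed between the P0 libraries, at 556 FPKM in replicate 1 and 4230 in replicate 2, and less at P3, at 280 and 200. Its part in these gaps was not tested. The direction of Hmga2 from P0 to P3, P3 to P7 and E17 to P7 turned when single libraries were left out, so none is given. From E17 to P0 it passed only without P0 replicate 2 (log2 -1.77, limma, adjusted p = 0.0467).

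Hmga1 (ENSMUSG00000046711, chromosome 17, 27556497 to 27563674, plus strand), which encodes the related AT-hook protein HMGA1, had the smallest ratio of E13 to P60 in mean FPKM of the 6 genes, 7.31-fold. Of its 31-letter words, 62.1% also occur in other annotated transcripts, so its level depends on how shared reads were divided and is uncertain. Its libraries read 6.15 and 7.52 FPKM at E13, 4.26 and 4.16 at E15, 6.50 and 2.95 at E17, 11.8 and 4.72 at P0, and 2.23 and 5.0 at P3. They read 2.92 and 3.11 at P7, 1.93 and 1.67 at P14, 1.06 and 1.08 at P21, 0.921 and 0.948 at P60, 1.54 and 1.17 at Y1, and 0.944 and 1.06 at Y2. Its highest mean was at P0, unlike the other 5 genes, but the P0 libraries overlapped those of E13 and were 2.49-fold apart. No single step between neighbouring ages passed the test with all libraries in the joint fit. The step from P0 to P3 (log2 -0.96, limma, adjusted p = 0.0575) passed without E17 replicate 1 (0.0369), E17 replicate 2 (0.0368), P0 replicate 2 (0.00638) or P3 replicate 2 (0.0251). That from E17 to P0 passed without P0 replicate 2 (log2 1.23, limma, adjusted p = 0.0321), and that from P14 to P21 with those ages fitted alone (-0.43, 0.0407). Its fall from P7 to P60 (log2 -1.05 ± 0.34, limma, adjusted p = 0.0265) was lost without any of the 4 libraries (0.084 to 0.104).

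Hmga2 minus Hmga1 was 2.07 ± 1.63 (SD, n = 6) on the log2 scale in the fetal libraries and -0.27 ± 0.47 (n = 6) in the adult ones, a difference of -2.34 (exact two-sided permutation test, p = 0.013, adjusted p = 0.026). The adjusted p was 0.0563 without Y1 replicate 1, Y1 replicate 2 or Y2 replicate 2. The difference carries the same doubt about Hmga1, and its p-values have the same limit of pooled libraries that are not independent of their age.

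Other annotated genes overlap exons of 4 of the 6 on the opposite strand, and whether counting used strand is not given in the sources used here. They are Malsu1 with Igf2bp3 (at most 4.87 FPKM), AI413582 with Hmga1 (4.42), 1700006J14Rik with Hmga2 (3.23) and Gm29202 with Igf2bp1 (1.44). Each of the 5 genes other than Hmga1 shared at most 2.26% of its words with another gene.

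Of the 60 steps between neighbouring ages (10 for each gene), 18 were called lower and 1 higher. From E13 to E15, 3 of 6 genes fell (12.3% of all tested genes were lower), and from E15 to E17, 3 fell (15.6%) and 1 rose (18.8% higher). From E17 to P0, 2 fell (8.91%), from P0 to P3, 3 fell (11.2%), and from P3 to P7, 3 fell (8.98%). From P7 to P14 limma called none of the 6, against 3.7% of all genes, and 1 had an unadjusted p under 0.05. From P14 to P21, 3 of 6 fell (17.7%). From P21 to P60 and from Y1 to Y2 limma called none, and none had an unadjusted p under 0.05, against 13.5% and 21.8% of all genes called. From P60 to Y1, 1 of 6 fell, Igf2bp2 (9.98%; limma, adjusted p = 0.0406), a call that was lost without P60 replicate 1 (0.293), Y1 replicate 1 (0.194) or Y1 replicate 2 (0.107), after quantile normalization (0.0672) and with no filter (0.0647). It was also above 0.05, at up to 0.0535, without any library of E17, P3, P7 or P21. With a pseudocount of 0.1 Igf2bp3 also passed from P60 to Y1 (log2 -1.0, limma, adjusted p = 0.0137).

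**Figure D4:**
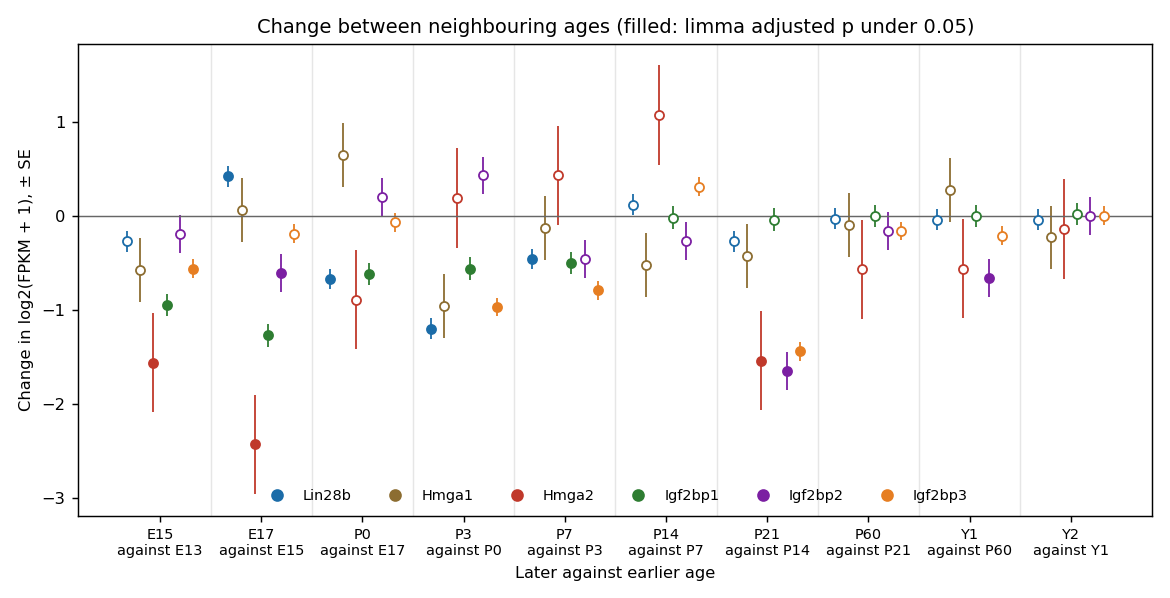
Change of each gene between neighbouring ages on the log2(FPKM + 1) scale, with bars of ± SE from limma. Filled points passed an adjusted p of 0.05. Hmga2 and Igf2bp1 hold the largest fetal falls, Lin28b and Igf2bp3 fall from P0 to P3 (-1.20 and -0.97), and Igf2bp2, Igf2bp3 and Hmga2 fall from P14 to P21.

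From P14 to P21, Igf2bp2 and Igf2bp3 fell under every alternative run, and Hmga2 passed in the joint fit with the losses given above. Lin28b passed with a pseudocount of 0.1 and with those ages fitted alone (limma, adjusted p = 0.0217). At the same ages the summed level of 8 oocyte markers (such as Gdf9 and Zp3) went from 1140 to 1490 FPKM at P14 to 165 to 191 at P21, with all 8 at 1 FPKM or above at both ages. The 5 germ cell markers went from 57.9 to 72.9 FPKM to 14.4 to 16, and the 7 granulosa markers from 1200 to between 2820 and 2930, with 7 of 7 at 1 FPKM or above. The 7 proliferation markers read 117 to 136 FPKM at P14 and 112 to 119 at P21. The part of these shifts in the falls was not tested.

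Over the longer intervals the counts were 4 of 6 lower from E13 to E17 (14.2% of all tested genes were lower), 3 of 6 lower from E17 to P7 (20.7%), 3 of 6 lower from P7 to P60 (21.8%) and 1 of 6 lower from P60 to Y2 (17.4%). The 4 of the fetal interval were Hmga2 and the 3 Igf2bp genes. Those of E17 to P7 were Lin28b, Igf2bp1 and Igf2bp3, and those of P7 to P60 were Hmga1, Igf2bp2 and Igf2bp3. From P60 to Y2 only Igf2bp2 passed (log2 -0.66 ± 0.20, limma, adjusted p = 0.0237), and its call was lost without P60 replicate 1 (0.216) or Y2 replicate 2 (0.149). With a pseudocount of 0.1 Igf2bp3 passed as well (log2 -1.01, limma, adjusted p = 0.00589). From P60 to Y2 the summed level of the 8 oocyte markers went from 146 to 149 FPKM to 58.8 and 13.7, and that of the 5 germ cell markers from 8.77 to 9.32 FPKM to 3.08 and 2.30. The Y2 libraries also stood far apart in 6 theca and luteal markers, at 1860 and 8050 FPKM against 2600 to 2810 at P60. The part of these shifts in the Igf2bp2 change was not tested. These intervals share their end ages, so the counts are not independent. In the fetal interval the 9 markers of undifferentiated germ cells (such as Pou5f1 and Sox2) went from 9 of 9 at 1 FPKM or above at E13, with a sum of 99.2 to 100 FPKM, to 3 of 9 at E15, with a sum of 6.27 to 8.70, and 1 of 9 at E17, where Dppa3 made up nearly all of a sum of 71.3 to 103. The part of that shift in the fetal falls was not tested.

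Among genes around LIN28 and let-7 more fell than rose from E13 to P60, but not from E17 to P7. From E17 to P7, 3 of 16 fell and 4 rose (median log2 -0.03 against -0.04 over all genes tested). Of the 16117 genes tested, 20.7% fell over that interval and 6012 were called in either direction. Of the 16 listed, 9 fell and 1 rose from E13 to P60, with a median log2 change of -0.53 against -0.06 over all genes tested, of which 30.5% fell and 24.2% rose. Trim71, a ubiquitin ligase and let-7 target of early embryos, read 3.64 and 4.18 FPKM at E13 and 0.347 and 0.34 at E15. It then read 7.7 and 7.03 at E17, 12.5 and 11.0 at P0, and 0.219 and 0.20 at P60. The log2 change from E13 to P60 was -2.02 (limma, adjusted p = 4.34e-09). The P0 libraries of Trim71 were thus the highest of its 11 ages. Dhx9, an RNA helicase, fell from 47.1 ± 0.384 to 22.1 ± 0.0258 FPKM (limma, adjusted p = 5.11e-08). The nucleases of microRNA maturation fell too, Drosha with log2 -0.75 and Dicer1 with -0.70. Ago3, a small-RNA effector, was the exception that rose, from 3.89 ± 0.175 to 5.42 ± 0.0476 FPKM (limma, adjusted p = 0.00403).

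Of 23 growth and cell cycle genes known as let-7, LIN28B or HMGA targets, 14 fell and 5 rose from E13 to P60, with a median log2 change of -0.71. Over all genes tested the median was -0.06, and 30.5% fell and 24.2% rose. Plag1, a zinc finger factor that activates Igf2, fell from 8.14 ± 0.394 to 0.376 ± 0.0915 FPKM (log2 -2.73, limma, adjusted p = 3.03e-08). Ccnd1, which encodes cyclin D1, fell from 34.7 ± 1.42 to 5.27 ± 0.25 FPKM (log2 -2.51, limma, adjusted p = 1.02e-06). Cdkn2b, which encodes the cyclin-dependent kinase inhibitor p15, went the other way, from 0.487 and 0.935 FPKM at E13 to 10.7 and 8.60 at P60. It read 68.1 and 54.4 FPKM at Y1 and 1.33 and 6.49 at Y2, so its Y1 libraries were the highest of the 22. The other 4 that rose were Plagl2 (log2 1.10), Myc (0.68), Cdk6 (0.60) and Insr (0.47), of which Cdk6 and Insr were named after their values were seen.

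Of 14 IGF2BP clients and ribonucleoprotein partners, 9 fell and 2 rose from E13 to P60, with a median log2 change of -0.42. The median over all genes tested was -0.06, with 30.5% lower and 24.2% higher at P60. H19, an imprinted noncoding RNA, read 230.0 and 229 FPKM at E13, 484 and 363 at E15, 225 and 251 at E17, 186 and 219 at P0, 74.4 and 56.6 at P3, and 1.37 and 1.06 at P60 (log2 -6.70 from E13 to P60, limma, adjusted p = 4.75e-11). Igf2, the fetal growth factor whose mRNA gave the IGF2BP proteins their name, read 98.2 and 39.1 FPKM at E13, a mean of 143 ± 2.49 at E15, 15.3 and 50.7 at E17, and 0.963 and 0.715 at P60 (log2 -5.10, limma, adjusted p = 6.41e-06). The libraries of Igf2 were thus far apart at E13 and E17, and 61.9% of its words occur in other annotated transcripts, so its level is uncertain. Fmr1, an RNA-binding repressor of translation, fell from 23.2 ± 0.543 to 10 ± 0.0213 FPKM. Cd44, a hyaluronan receptor (log2 0.92), and Ybx1, an RNA-binding cold-shock protein (0.73), were the 2 that rose. Ybx1 shares 25.9% of its words with other genes.

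Of 15 writers, erasers and readers of m6A, 10 fell and none rose from E13 to P60, with a median log2 change of -0.32 against -0.06 over all genes tested, of which 30.5% fell and 24.2% rose. Over the shorter intervals 2 of 15 fell from E13 to E17 (14.2% of all tested genes fell) and 5 from E17 to P7 (20.7%). From P7 to P60, 2 fell (21.8%), and from P60 to Y2, 1 fell (17.4%). The readers Ythdc2 (log2 -0.83), Ythdf2 (-0.74) and Ythdf1 (-0.59) led the list from E13 to P60, while the writer Mettl3 (-0.22, limma, adjusted p = 0.26) did not pass. Of 12 other high mobility group and linker histone genes, 7 fell and 2 rose from E13 to P60 (30.5% and 24.2% of tested genes). Their median log2 change was -0.44, against -0.06 over all genes tested. Hmgb2, which binds chromatin in dividing cells, had a mean of 69.2 ± 3.57 FPKM at E13 and 17.5 ± 2.28 at P60 and fell by 1.93 on the log2 scale (limma, adjusted p = 5.43e-08). Those that rose were Hist1h1c (log2 1.77) and H1foo, the oocyte linker histone, which both E13 libraries list at 0 and which read 10.8 and 9.59 FPKM at P60. The 7 proliferation markers, such as Mki67 and Top2a, went from between 211.5 and 212.2 FPKM at E13 to between 60.4 and 70.7 at P60, with 7 of 7 at 1 FPKM or above at both ages, and their part in these counts was not tested.

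The genes most like each of the 6 across the 22 libraries were sought among 6988 genes with a mean of at least 10 FPKM at some age. Pearson r on log2(FPKM + 1) is given as a description, since libraries of an age and the shared ages make the points dependent. The closest to Lin28b were Hormad1 and Stag3 (r = 0.981 each), proteins of the meiotic chromosome axis and cohesin. The closest to Igf2bp3 were Dazl (0.984), a germ cell RNA-binding protein, Zcwpw1 (0.981), a reader of histone marks in meiosis, and Zim1 (0.980), an imprinted zinc finger gene. Those of Igf2bp1 were M1ap (0.964), a meiosis gene, Has2 (0.962), a hyaluronan synthase, and Cldn6 (0.960), a claudin of embryonic epithelia. Those of Igf2bp2 were Prr5 (0.975), Farp1 (0.968) and Tubb2b (0.967). Hmga2 and Hmga1 had lower maxima, with Terf1 (0.922), Tuba3a (0.917) and Ddx39b (0.90) for Hmga2, and Uqcrc1 (0.927), Eif2b5 (0.918) and Denr (0.916) for Hmga1. Of these, Tuba3a, Tubb2b and Hormad1 share 48.4%, 43.1% and 36.3% of their words with other genes, so their levels are uncertain. Among the 6 genes themselves r ranged from 0.50 for Hmga1 with Hmga2 to 0.93 for Lin28b with Igf2bp3.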

How the data were processed

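Bulk RNA of whole mouse ovaries was sequenced at 11 ages with 2 libraries each. The deposited table holds FPKM per gene and library. HISAT2, StringTie, edgeR and build mm10 are named per the submitters' processing notes, without their roles, and the design text instead names TopHat for the analysis. Versions, annotation and the treatment of reads with several alignments: not given in the sources used here. Each library was grouped by the age in its own title.

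Depth was estimated from values under 0.2 FPKM in genes with 1 transcript, of which 94.5% to 97.1% were whole fragments within 0.02; it came to 11500000 to 18100000 fragments per library, which puts 23.0 to 36.3 fragments behind 1 FPKM of a transcript of 2 kb. The test used limma 3.58.1 (R 4.3.3) and took log2(FPKM + 1) of the 16117 of 34745 genes that reached 1 FPKM in 2 or more libraries. Age entered as a factor of 11 levels in a joint fit of all libraries, with eBayes using a trend and 11 residual degrees of freedom. Benjamini-Hochberg adjustment ran over all tested genes of a comparison, with a threshold of 0.05. Fold changes on this scale are too small for genes close to or below 1 FPKM. Folds called "in mean FPKM" are ratios of the means. On data simulated for P60 against E13 over 14424 genes, the fit recovered 81% of changes of 1 and 100% of changes of 2 on the log2 scale. Those changes were planted only in genes with a mean log2(FPKM + 1) above 2, in data without other age changes. Lin28b, Hmga1, Igf2bp1 and Igf2bp3 had lower means, so the recovery does not cover them. Paralogue differences per library were compared between 6 fetal (E13, E15, E17) and 6 adult (P60, Y1, Y2) libraries by an exact permutation test over 924 splits.

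Matches to the let-7 seed were counted in the longest annotated 3′ untranslated region of each gene (GENCODE M21). Gene positions are from the same annotation, by Ensembl ID. Python 3.11.15, pandas 2.3.3 and numpy 2.4.6 served for tables.

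All 6 members were named. The 3 genes most like each member were named by Pearson r, and from each pathway list the 3 largest changes from E13 to P60 and up to 3 members called against the majority; 1 gene so taken is not reported here. The members and lists were chosen with earlier results of these data known. Alternatives covered the pseudocount, the filter, scaling, trend, the replicate block, leaving out each library, leaving out the Y2 libraries and fitting the compared ages alone. Leaving out Y1 and Y2 together was chosen after the data were seen. A planned comparison of protein sequences was not run.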

Additional observations from a re-analysis of the deposited data

How the results depend on the processing

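Of 3024 values of the 6 genes under alternatives, 2919 kept their direction and their side of the threshold, 77 lost the call in the same direction, 14 gained it and 14 changed sign, none of these 14 past the threshold. Of the 42 calls, 29 were kept under every alternative run, and the 6 falls from E13 to P60 were among those kept. With a pseudocount of 0.1 the Igf2bp1 minus Igf2bp2 difference was -2.15, and 2 of the 6 genes were called from P60 to Y2. With E13 and E15 as the fetal ages, Lin28b minus Lin28a was 0.10. With median-of-ratios scaling 2 genes of the LIN28 and let-7 list were higher at P60. With P60 and Y2 fitted alone, 318 genes and 0 of the 6 were called. Fits of the 2 compared ages alone, with few residual degrees of freedom, also lost Lin28b from E15 to E17, E17 to P0 and P3 to P7, Igf2bp1 from E17 to P0, and Igf2bp2 from E15 to E17 and P60 to Y1. No scaling moved the median of all genes by more than 0.065 on the log2 scale.

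Leaving out a library gave a range of -2.82 to -2.02 for Hmga2 minus Hmga1 and of -0.26 to 0.08 for Igf2bp1 minus Igf2bp2. Genes called ranged from 3469 (without E13 replicate 2) to 6582 from E13 to E17, and from 2866 (without P60 replicate 1) to 6042 from P60 to Y2, where 0 to 1 of the 6 were called. Uncalled values that changed sign had these ranges over the left-out libraries. Hmga1 ran from -0.90 to 0.02 for E17 to P7 and from -0.40 to 0.53 for E15 to E17 (E17 replicate 1), and from -0.58 to 0.31 for P3 to P7 (P3 replicate 2). Hmga2 ran from -0.77 to 0.22 for E17 to P7 (P7 replicate 2), from -0.69 to 1.07 for P0 to P3 (P0 and P3 replicate 1), from -0.45 to 1.32 for P3 to P7 (P3 replicate 2, P7 replicate 1) and from -0.39 to 0.10 for Y1 to Y2 (Y2 replicate 2). Igf2bp1 ran from -0.02 to 0.04 for P60 to Y2 and from -0.01 to 0.04 for Y1 to Y2 (Y2 replicate 2). Igf2bp2 ran from -0.07 to 0.47 for E17 to P0 (P0 replicate 2) and from -0.36 to 0.04 for P21 to P60 (P60 replicate 2). The libraries in parentheses are those whose absence turned the sign. With quantile normalization Igf2bp1 was at 0.02 from P14 to P21. The cause of these changes was not tested.

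The replicate numbers did not pair the samples: of 55 pairs of ages, 1 had a correlation of same-numbered deviations over 0.1, with a median of -0.003. With the replicate number as a block, 17 steps were called in place of 19. The calls lost with the block were Hmga2 from E13 to E15 (limma, adjusted p = 0.0514) and Igf2bp2 from P60 to Y1 (0.0522), and it changed no other call of the 6 genes or of the paralogue differences. At the depth of these libraries, levels of Lin28b and Igf2bp1 from P21 on, and of Igf2bp3 at Y1 and Y2, rest on a few fragments.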
